A study of Homo sapiens with 6 samples.

Results

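The interferon response and RNA sensing genes were taken by symbol. They comprised genes whose symbol begins with IFI or OAS, genes named IRF or STAT followed by a digit, and a list of 21 further symbols. Of 14884 genes that an array probe set named with a single symbol, 48 met this rule, 17 from the list and 31 by the start of the symbol. The listed genes MX1, PARP9, PARP14 and CMPK2 were not analysed here. The rule used no measured value, but the members were chosen with earlier results of these data known. No filter on low values was applied, so every one of the 48 was tested. The symbols are wider than the label. They take in the STAT factors of other cytokines, the IRF2 corepressors IRF2BP1, IRF2BP2 and IRF2BPL, the bone gene IFITM5 and a pseudogene, IFITM4P.

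The genes were measured in Caco-2 cells, a human line from a colon carcinoma that can grow into a sheet resembling enterocytes. Subconfluent cells had received a lentivirus and were harvested 17 days later. A first group expressed FAM46A-shRNA#2 and a second FAM46A-shRNA#4, which are short hairpin RNAs against FAM46A (TENT5A), a non-canonical poly(A) polymerase, and the control group expressed a scramble shRNA. Each of the 3 groups held 2 Affymetrix arrays of total RNA, labelled as biological replicates. All of them, controls included, carried a lentivirus and a hairpin, and no uninfected cells were analysed here, so the comparisons show nothing of what infection itself changed. The level of FAM46A was not analysed here, and the groups follow the labels.

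Cells recognise foreign RNA with helicases in the cytoplasm, RIG-I and MDA5, which signal through the mitochondrial adaptor MAVS to kinases that activate the factors IRF3 and IRF7. Secreted interferon then acts through JAK kinases and a transcription factor complex that contains IRF9, which binds the interferon-stimulated response element and raises a wide set of genes. Their products degrade viral RNA, stop translation, block entry, or, like USP18, end the signal. Intestinal epithelium uses the same circuit, with interferon lambda as a major signal.

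Each deposited value was relative to the 6-array median of the probe set. The values show which arrays lie higher, but not how bright a gene was, so an absent transcript cannot be told from one that is present and constant. They were read as log2 values, and that base is an assumption. Each ± gives the standard error of a limma fit over all genes with n = 2 arrays per group, and a gene was called at a Benjamini-Hochberg adjusted p under 0.05. In these bulk samples of the Caco-2 line fewer cells in a given state and less RNA per cell cannot be told apart. The labels name no leukocytes or fibroblasts, so those marker lists stand for genes and not for such cells. Of 16 epithelial marker genes listed, 11 were measured, and with both hairpins averaged against scramble 6 of them fell and 0 rose, with a median log2 change of -0.15 (25.4% of all genes were called, 10.6% lower). KRT20, a keratin of differentiated enterocytes, had -1.19 and VIL1, which encodes the brush border protein villin, -0.61, while the keratins KRT18 and KRT8 had 0.30 and 0.13 and were not called. With shRNA#4 alone KRT18 rose by 0.49 (limma adjusted p 0.0315). Of 9 measured leukocyte markers 4 fell and 0 rose, with CD68, a lysosomal protein of macrophages, at -2.01 and the lysozyme gene LYZ at -1.16. LAPTM5 had -0.77 and CSF1R -0.31. CD14 went the other way with 0.34 and was not called (limma adjusted p 0.0519). CD2, NKG7, GNLY and CD53 lay between -0.035 and 0.053. Of 3 measured fibroblast markers 1 was called, TAGLN, whose mean of 0.44 joined -0.23 with shRNA#2 (limma adjusted p 0.0512) and 1.11 with shRNA#4 (0.000332). Their part in the results was not tested, and the centring leaves no level by which to check that the markers were present.

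With both hairpins averaged and set against scramble, 9 of the 48 genes were called, which is 18.8%, and 25.4% of all 14884 genes were called in that comparison. RIGI, IRF2, IRF7, IFI35, IFITM10, DTX3L and MAVS fell, 7 in all, and EIF2AK2 and USP18 rose, 2 in all. The background was 10.6% for falls and 14.8% for rises. The median log2 change was -0.034 over the 48 genes and 0.0028 over all genes. In size the changes were ordinary too, with a median absolute log2 change of 0.070 in the 48 genes against 0.0912 in all genes. Without replicate 1 of scramble fewer of the 48 were called, in a fit that leaves that group with 1 array. The share of all genes called in that fit is not given here.

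**Figure D1:**
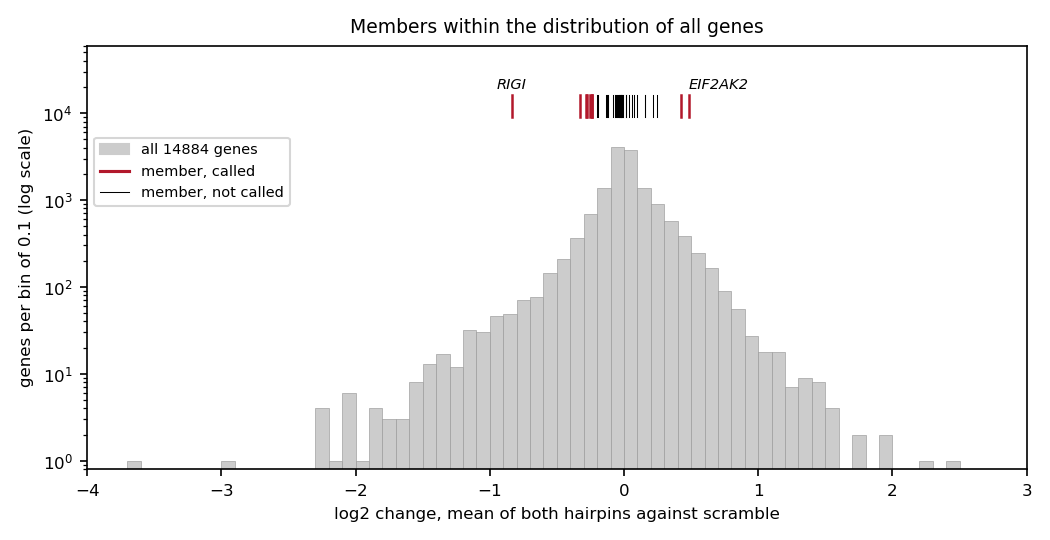
Log2 change of the mean of both hairpins over scramble (horizontal axis) of all 14884 genes, as bars counting genes per bin of 0.1 on a log axis. The 48 members stand above as vertical ticks, red where called and black where not. RIGI lies alone at -0.83, and most of the other members lie near 0.

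The hairpins were also set against scramble singly. With shRNA#2, 10 of the 48 genes were called, 3 higher and 7 lower (20.8%, against 21.6% of all genes, of which 12.1% were higher and 9.54% lower). With shRNA#4, 5 were called, 2 higher and 3 lower (10.4%, against 26.1% of all genes, 15.7% higher and 10.4% lower), and after quantile normalization 4 were called, 0 higher and 4 lower. These comparisons share the scramble arrays. In the direct comparison of shRNA#2 against shRNA#4, IFIH1 and IRF2BP2 were higher and MAVS was lower, 3 of 48 or 6.25%, where 15.3% of all genes were called, 6.64% higher and 8.63% lower. Arrays of the groups did not overlap in 23 of the 48 genes with shRNA#2 (47.9%, and 58.6% of all genes), in 21 with shRNA#4 (43.8%, and 58.6% of all genes) and in 20 between the hairpins (41.7%, and 54.5% of all genes). Altogether 11 genes were called in at least 1 of the 4 comparisons and 37 in none. The same count over all genes was not made, so these 2 numbers have no background.

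RIGI, which encodes the RNA helicase RIG-I that detects viral RNA with exposed triphosphate ends, lies on chromosome 9 at 32455302 to 32526196 (GRCh38.p14). It stood at -0.40 and -0.13 in the shRNA#2 arrays and at 0.041 and -0.041 in the shRNA#4 arrays, against 0.71 and 0.69 in the scramble arrays. Every hairpin array lay below both scramble arrays, and the scramble arrays were close together. Averaged over the hairpins RIGI fell by 0.83 ± 0.081 (log2), a 1.78-fold lower level (limma adjusted p 0.00118). The change was -0.97 ± 0.093 with shRNA#2 and -0.70 ± 0.093 with shRNA#4, with limma adjusted p-values of 0.00170 and 0.00325. By absolute change RIGI ranked 340 of 14884 genes for the mean of both hairpins. Its hairpin groups differed from each other by -0.26 ± 0.093, which did not pass the test (limma adjusted p 0.126).

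EIF2AK2 encodes PKR, a kinase that double-stranded RNA activates and that then stops translation by phosphorylating an initiation factor. It lies on chromosome 2 at 37099210 to 37156980. The values were 0.20 and 0.19 with shRNA#2 and 0.091 and -0.091 with shRNA#4, against -0.38 and -0.39 with scramble. The hairpin arrays thus lay above both scramble arrays, the reverse of RIGI. EIF2AK2 rose by 0.48 ± 0.060 in the mean of both hairpins, a 1.40-fold higher level (limma adjusted p 0.00257). With shRNA#2 the change was 0.58 ± 0.069 and with shRNA#4 0.38 ± 0.069 (limma adjusted p 0.00318 and 0.00977). The shRNA#4 call ended after quantile normalization, which gave 0.27 with a limma adjusted p of 0.0531.

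MAVS, the mitochondrial adaptor through which RIG-I and MDA5 signal, stood at -0.30 and -0.19 with shRNA#2 and at -0.0059 and 0.0059 with shRNA#4, against 0.16 and 0.077 with scramble. The shRNA#2 arrays were the lowest and the scramble arrays the highest, with no overlap between any of the 3 groups. MAVS fell by 0.36 ± 0.060 with shRNA#2 (limma adjusted p 0.0092), and the change with shRNA#4 was -0.12 ± 0.060 (limma adjusted p 0.233). Between the hairpins it differed by -0.24 ± 0.060 (limma adjusted p 0.0457), and its call in the mean of both hairpins had a change of -0.24 ± 0.052 (limma adjusted p 0.0193). No alternative reversed these changes, and the one with shRNA#2 lay between -0.42 and -0.30 throughout. Leaving out an array leaves its group with 1 array, and each omission also lowered the number of all genes called with shRNA#2. The MAVS calls themselves were fragile. The one for the mean ended without replicate 1 of shRNA#2 (adjusted p 0.0510), of shRNA#4 (0.0525) or of scramble (0.123), the one for shRNA#2 without replicate 1 of shRNA#2 (0.0558) or of scramble (0.0503), and the one between the hairpins when any 1 of the 6 arrays was left out (0.0588 to 0.210) or the replicate number was a block (0.0561).

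IFIH1 encodes MDA5, the sensor of long double-stranded RNA. It stood at 0.28 and 0.28 in the shRNA#2 arrays and at -0.19 and -0.037 in the shRNA#4 arrays, against -0.18 and 0.037 in the scramble arrays. Only the shRNA#2 arrays lay apart, and those of shRNA#4 and scramble overlapped. IFIH1 rose by 0.35 ± 0.087 with shRNA#2 (limma adjusted p 0.0360), and the shRNA#4 change was -0.043 ± 0.087 with a 95% interval from -0.26 to 0.17. The hairpins differed by 0.39 ± 0.087 (limma adjusted p 0.0320). The shRNA#2 call ended without either shRNA#2 array (adjusted p 0.142 and 0.129 without replicates 1 and 2) and without replicate 1 of scramble (0.133), and the difference between the hairpins lost its call when any 1 of the 4 hairpin arrays was left out (0.0633 to 0.138).

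The remaining sensors were DHX58, which encodes LGP2, a relative of RIG-I that lacks the signalling domain, and TLR3, the endosomal receptor of double-stranded RNA. DHX58 stood at -0.038 and -0.013 with shRNA#2 and at 0.013 and 0.020 with shRNA#4, against 0.034 and -0.073 with scramble. TLR3 stood at 0.064 and -0.0017 with shRNA#2 and at -0.016 and 0.063 with shRNA#4, against 0.0017 and -0.063 with scramble. For the mean of both hairpins the changes were 0.015 (95% interval -0.10 to 0.13) for DHX58 and 0.058 (-0.062 to 0.18) for TLR3, and neither was called. Of the 6 sensors and adaptor genes, RIGI and MAVS were thus lower and EIF2AK2 higher for the mean of both hairpins, 3 of 6 where 25.4% of all genes were called.

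**Figure D2:**
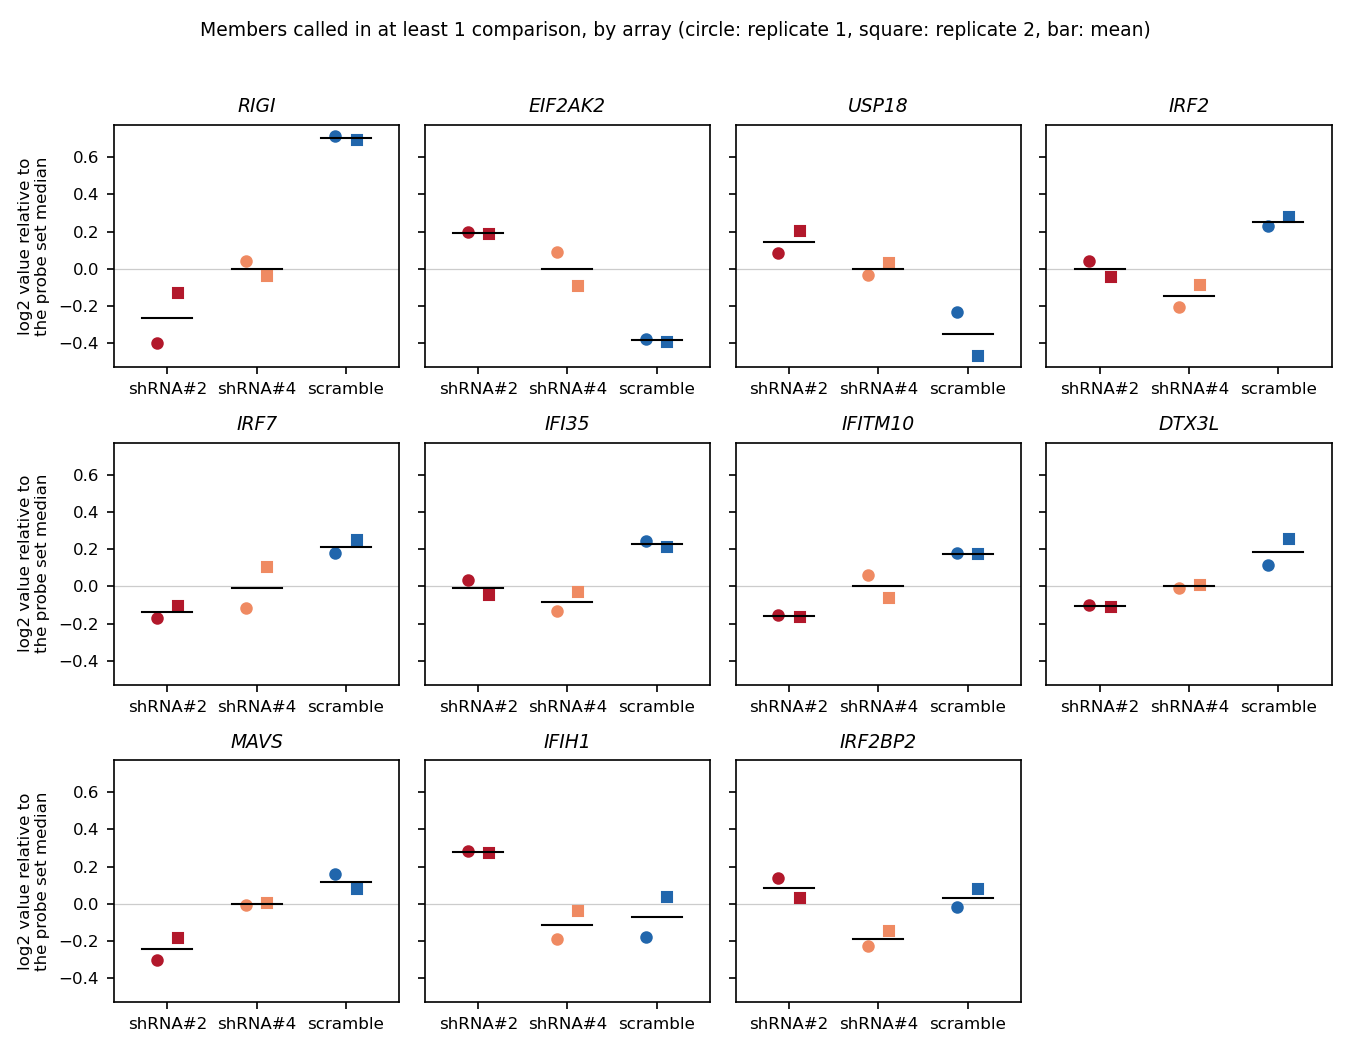
Log2 value relative to the median of the probe set (vertical axis, same scale in all panels) in each array for the 11 members called in at least 1 comparison, ordered by the size of the change. Circles are replicate 1, squares replicate 2 and bars the mean of 2 arrays. In RIGI both scramble arrays lie far above the 4 hairpin arrays, in EIF2AK2 and USP18 below them, and in IFIH1 only the shRNA#2 arrays stand apart.

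Promoter windows show which of these genes carry the letters that the interferon-activated complex recognises. Windows from 250 bases before to 50 bases after the gene start were given by RefSeq (GRCh38.p14) for 37 of the 48 genes, and their first 280 bases are shown for 5 of them. RIGI, EIF2AK2 and IFIH1 are the sensors that were called, DTX3L is a called gene with the same element, and IFI44L carries it with no change. Capitals mark the core of the interferon-stimulated response element, which was searched as GAAA, any 2 bases and GAAA, or a version with a gap of 1 base that was added after the RIGI window had been read, each on either strand. The windows lie at chr9:32526167-32526446 on the minus strand for RIGI, chr2:37156951-37157230 on the minus strand for EIF2AK2, chr2:162318655-162318934 on the minus strand for IFIH1, chr3:122564088-122564367 on the plus strand for DTX3L and chr1:78620198-78620477 on the plus strand for IFI44L.
RIGI: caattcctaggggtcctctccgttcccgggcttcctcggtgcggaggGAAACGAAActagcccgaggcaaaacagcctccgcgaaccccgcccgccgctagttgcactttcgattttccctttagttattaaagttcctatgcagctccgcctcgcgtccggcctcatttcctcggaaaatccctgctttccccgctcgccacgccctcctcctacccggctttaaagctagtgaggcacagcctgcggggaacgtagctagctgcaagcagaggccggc
EIF2AK2: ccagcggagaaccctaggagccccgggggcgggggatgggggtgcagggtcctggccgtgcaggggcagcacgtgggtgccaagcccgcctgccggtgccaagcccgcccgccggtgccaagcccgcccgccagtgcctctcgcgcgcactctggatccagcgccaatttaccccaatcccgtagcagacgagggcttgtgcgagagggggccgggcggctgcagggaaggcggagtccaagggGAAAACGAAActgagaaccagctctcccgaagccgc
IFIH1: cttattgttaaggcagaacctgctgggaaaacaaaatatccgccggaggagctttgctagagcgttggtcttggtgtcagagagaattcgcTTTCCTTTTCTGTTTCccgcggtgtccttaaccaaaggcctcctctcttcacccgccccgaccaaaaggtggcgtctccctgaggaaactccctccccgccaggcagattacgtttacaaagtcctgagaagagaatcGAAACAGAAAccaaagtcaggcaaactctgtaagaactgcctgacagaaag
DTX3L: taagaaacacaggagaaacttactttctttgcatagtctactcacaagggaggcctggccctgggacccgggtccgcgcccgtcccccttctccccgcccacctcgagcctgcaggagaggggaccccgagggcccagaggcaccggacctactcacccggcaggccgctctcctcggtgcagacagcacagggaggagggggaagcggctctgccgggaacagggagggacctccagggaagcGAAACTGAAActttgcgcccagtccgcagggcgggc
IFI44L: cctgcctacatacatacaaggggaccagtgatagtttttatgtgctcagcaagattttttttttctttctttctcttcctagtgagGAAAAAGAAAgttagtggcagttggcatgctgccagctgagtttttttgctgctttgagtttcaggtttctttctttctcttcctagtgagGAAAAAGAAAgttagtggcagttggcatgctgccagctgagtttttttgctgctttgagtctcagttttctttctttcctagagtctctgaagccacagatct

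EIF2AK2 and DTX3L each held 1 copy of the core, and its first base lay at -6 from the gene start in both. The IFIH1 window held 3 copies, of which 2 overlapped, and that of IFI44L held 2. In RIGI only the version with the 1-base gap was found, with its first base at -203. Of the 37 genes with a window, 17 (45.9%) held the core, against 4.38% of 27305 genes with a window in RefSeq. The version with the 1-base gap was in 10 of the 37 (27%), RIGI among them, and in 3.87% of the 27305 genes. Since that version was taken from the RIGI window, its share among the 37 is a description only. TTCNNNGAA, the gamma-activated site that STAT dimers bind, read on either strand, was in 7 of the 37 (18.9%) and in 9.38% of the 27305 genes.

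The genes with a window were then set out by whether they held the core. USP18, IRF2, IRF7 and IFITM10, which were called for the mean of both hairpins, had no window and are left out. Among the 17 with it, 1 rose and 1 fell for the mean of both hairpins, and their median log2 change was 0.013, with a range from -0.24 to 0.48. Among the 20 without it, 0 rose and 3 fell, with a median of -0.060 and a range from -0.83 to 0.22. Of all genes, 14.8% rose and 10.6% fell in that comparison. BST2, HERC5, IFIT1, IFIT3, IFIT5, IFITM1, IFITM3, ISG15 and IFI44L all held 2 or 3 copies and were not called in any of the 4 comparisons. A match is a description of the letters and says nothing of whether a factor binds there in Caco-2.

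**Figure D3:**
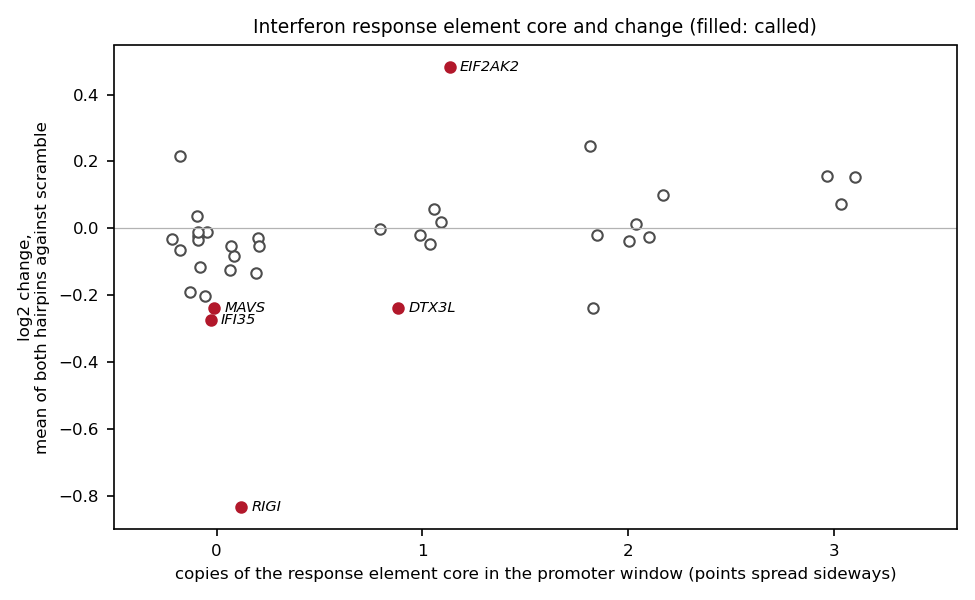
Copies of the response element core in the promoter window (horizontal axis, points spread sideways) against the log2 change of the mean of both hairpins over scramble (vertical axis) for the 37 genes with a window. Filled points are called genes. RIGI at -0.83 has 0 copies and EIF2AK2 at 0.48 has 1, and no gene with 2 or 3 copies was called in that comparison.

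The IRF and STAT transcription factors, with the IRF2 corepressors, gave 15 measured genes. For the mean of both hairpins IRF2 and IRF7 fell, 2 of the 15, and 0 rose (13.3%, against 25.4% of all genes, 10.6% lower and 14.8% higher). IRF2, a factor that binds the same element as IRF1 and often represses it, stood at 0.045 and -0.045 with shRNA#2 and at -0.20 and -0.086 with shRNA#4, against 0.23 and 0.28 with scramble. The hairpin arrays all lay below the scramble arrays, with shRNA#4 the lowest. IRF2 fell by 0.33 ± 0.055 (1.25-fold, limma adjusted p 0.00749). The changes were -0.25 ± 0.064 with shRNA#2 and -0.40 ± 0.064 with shRNA#4 (limma adjusted p 0.0361 and 0.00621), and the shRNA#2 call ended after quantile normalization (0.0636) and without any 1 of the shRNA#2 or scramble arrays (0.0787 to 0.171).

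IRF7, the factor that amplifies the production of interferon, stood at -0.17 and -0.10 with shRNA#2 and at -0.12 and 0.10 with shRNA#4, against 0.18 and 0.25 with scramble. It was below scramble in all 4 hairpin arrays, and the shRNA#4 arrays were spread. IRF7 fell by 0.29 ± 0.072 in the mean (limma adjusted p 0.0318), a call that ended without any 1 of the shRNA#2 or scramble arrays (adjusted p 0.0638 to 0.156). With shRNA#2 the change was -0.35 ± 0.083 (limma adjusted p 0.0304), which ended with the same 4 omissions (0.0805 to 0.144), and with shRNA#4 it was -0.22 ± 0.083 (0.110).

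IRF3, the constitutive factor downstream of MAVS, stood at -0.039 and -0.013 with shRNA#2 and at -0.10 and 0.051 with shRNA#4, against 0.013 and 0.073 with scramble. IRF9, the DNA-binding subunit of the interferon-activated complex, stood at -0.11 and -0.17 with shRNA#2 and at -0.047 and 0.11 with shRNA#4, against 0.081 and 0.047 with scramble. Neither was called, with changes of -0.069 (95% interval -0.21 to 0.069) for IRF3 and -0.12 (-0.26 to 0.026) for IRF9 in the mean of both hairpins. IRF1, which interferon gamma induces, had 0.035 (-0.18 to 0.25). The lymphoid and myeloid factors IRF4, IRF5 and IRF8 lay between -0.055 and -0.033.

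The measured STAT genes were not called in any comparison. STAT3, the factor of interleukin-6 signalling, had changes of -0.16 ± 0.067 with shRNA#2 and 0.027 ± 0.067 with shRNA#4, and STAT4 of -0.0059 and -0.10. STAT5A and STAT5B, are neighbours on chromosome 17 that respond to growth hormone and other cytokines. STAT5A stood at -0.21 ± 0.065 with shRNA#2 and at -0.056 ± 0.065 with shRNA#4, while STAT5B stood at 0.0046 ± 0.12 and -0.39 ± 0.12. The STAT5B value rests on unequal arrays, -0.18 and -0.57 in the shRNA#4 arrays, against 0.020 and -0.0013 in the scramble arrays. Limma adjusted p-values were 0.0683 for STAT5A with shRNA#2 and 0.0639 for STAT5B with shRNA#4, and the direct differences between the hairpins had 0.185 and 0.0871.

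IRF2BP2, a corepressor of IRF2, was the third gene that differed between the hairpins, at 0.14 and 0.030 with shRNA#2 against -0.23 and -0.14 with shRNA#4, and it stood at -0.019 and 0.081 with scramble. The difference was 0.27 ± 0.066 (limma adjusted p 0.0434). Its 2 probe sets disagreed, with differences of 0.0020 and 0.54 between the hairpins, and the call ended without any 1 of the 6 arrays (adjusted p 0.0527 to 0.203) or with the replicate number as a block (0.0516). The related IRF2BP1 and IRF2BPL had changes of -0.12 and -0.024 in the mean and were not called.

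ISG15 is a ubiquitin-like protein that interferon induces, HERC5 is the ligase that attaches it in human cells and HERC6 the one in mouse cells, and USP18 removes it and also blocks the interferon receptor. USP18 rose, and the other members of this system were not called. USP18, on chromosome 22, stood at 0.088 and 0.20 with shRNA#2 and at -0.034 and 0.034 with shRNA#4, against -0.23 and -0.47 with scramble. The hairpin arrays lay above both scramble arrays, which were themselves 0.24 apart. USP18 rose by 0.42 ± 0.078 in the mean, a 1.34-fold higher level (limma adjusted p 0.0106), with 0.50 ± 0.090 under shRNA#2 (0.0125) and 0.35 ± 0.090 under shRNA#4 (0.0342). How far its probe set also detects USP41, a near-identical copy, was not analysed here.

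The USP18 calls of single hairpins did not hold throughout. The shRNA#2 call ended without replicate 2 of shRNA#2 (0.44, limma adjusted p 0.0718). The shRNA#4 call ended after quantile normalization (0.103) and without either or both of the shRNA#2 arrays (0.0526), either shRNA#4 array (0.0919 and 0.143 without replicates 1 and 2) or replicate 2 of scramble (0.106). The call for the mean stayed under 0.05 in each omission of 1 array. HERC6 stood at 0.14 and -0.012 with shRNA#2 and at 0.012 and 0.10 with shRNA#4, against -0.24 and -0.068 with scramble. Its hairpin arrays all lay above both scramble arrays. Hairpin and scramble arrays lay apart, in either direction, in 12 of the 48 genes (25.0%, and 36.2% of all genes). The HERC6 change of 0.22 ± 0.072 was not called (limma adjusted p 0.0818). ISG15 had 0.099 (95% interval -0.10 to 0.30) and HERC5 0.071 (-0.094 to 0.24).

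The IFIT genes, which bind foreign RNA and stop its translation, lie side by side on chromosome 10 between 89302046 and 89420997. None of the 5 measured genes was called in any of the 4 comparisons, and the lowest limma adjusted p was 0.104, for IFIT5 in the mean of both hairpins. From one end of the cluster to the other the mean changes were -0.12 ± 0.073 for IFIT2, -0.039 ± 0.057 for IFIT3, -0.013 ± 0.078 for IFIT1B, -0.24 ± 0.14 for IFIT1 and 0.15 ± 0.057 for IFIT5. IFIT1 stood at -0.26 and 0.17 with shRNA#2 and at -0.36 and -0.077 with shRNA#4, against 0.077 and 0.14 with scramble. The hairpin arrays were spread and one of them lay above both scramble arrays, and the 95% interval of the change ran from -0.57 to 0.090. IFIT5 stood at 0.070 and 0.029 with shRNA#2 and at 0.13 and -0.029 with shRNA#4, against -0.10 and -0.11 with scramble.

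The IFITM genes encode small membrane proteins, of which IFITM1, IFITM2 and IFITM3 block the entry of viruses. IFITM10 fell by 0.26 ± 0.050 in the mean of both hairpins (limma adjusted p 0.0130), and the other 5 and BST2 were not called. IFITM5 had -0.030 and IFITM4P -0.0068. No interferon response is established for IFITM10. It stood at -0.15 and -0.17 with shRNA#2 and at 0.063 and -0.063 with shRNA#4, against 0.18 and 0.17 with scramble, so the 3 groups did not overlap. The change was -0.34 ± 0.058 with shRNA#2 (limma adjusted p 0.0101) and -0.18 ± 0.058 with shRNA#4 (0.0753). The call for the mean ended without either scramble array (0.0731 and 0.0625 without replicates 1 and 2), and that for shRNA#2 without either shRNA#2 array (0.0562 and 0.0589) or replicate 1 of scramble (0.0502).

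With shRNA#2 the replicates differed most in genes of the IFITM cluster at the tip of chromosome 11. IFITM2 stood at 0.94 and -0.19 in the shRNA#2 arrays and at 0.19 and 0.13 in the shRNA#4 arrays, against -0.13 and -0.18 in the scramble arrays. Replicate 1 of shRNA#2 was thus higher than replicate 2 by 1.13, the largest gap between replicates of that group among the 48 genes. The same array was higher than its partner by 0.63 in IFITM3, 0.50 in IFITM1 and 0.39 in the pseudogene IFITM4P, which lies on chromosome 6 and was read by 6 probe sets. IFITM3 also split the scramble arrays, at 0.22 and -0.30. The median gap between shRNA#2 replicates was 0.0939 over the 48 genes and 0.065 over all genes.

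The intervals are wide for that reason. For the mean of both hairpins IFITM2 had 0.42 with a 95% interval from -0.27 to 1.12, IFITM3 -0.025 (-0.53 to 0.48) and IFITM1 0.013 (-0.39 to 0.42). These genes are close in sequence, and how far their probe sets detect each other's transcripts was not analysed here. BST2, which tethers budding virus particles to the cell, stood at 0.098 and 0.19 with shRNA#2 and at -0.14 and 0.33 with shRNA#4, against -0.15 and -0.098 with scramble. Its shRNA#4 replicates differed by 0.47, and its change of 0.25 (-0.061 to 0.55) was not called.

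**Figure D4:**
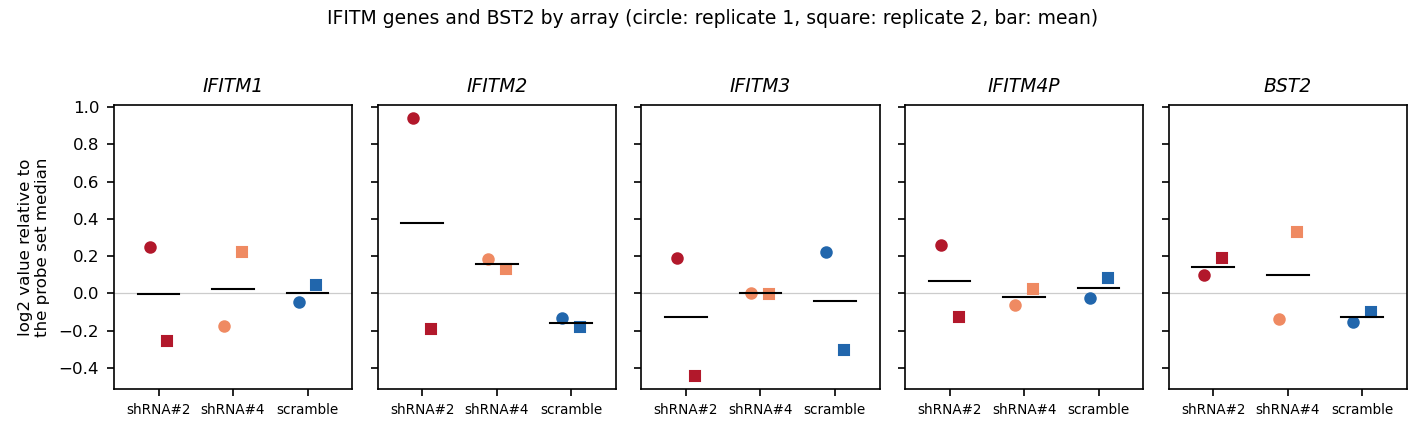
Log2 value relative to the median of the probe set (vertical axis) in each array for 4 IFITM genes and BST2. Circles are replicate 1, squares replicate 2 and bars the mean of 2 arrays. The gap between the shRNA#2 replicates of IFITM2, at 0.94 and -0.19, exceeds every difference between group means in the plot.

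The antiviral effectors are further genes that interferon raises. Of the 6 measured, MX2, RSAD2, SAMD9, SAMD9L, ISG20 and XAF1, 0 were called in any comparison. For the mean of both hairpins the changes were -0.0038 (95% interval -0.13 to 0.12) for RSAD2, which encodes the antiviral enzyme viperin, and -0.038 (-0.16 to 0.087) for MX2, a GTPase that restricts retroviruses. XAF1, a promoter of apoptosis, had -0.011 (-0.14 to 0.11) and SAMD9, an antiviral translation inhibitor, 0.018 (-0.11 to 0.15). ISG20, an exonuclease, had -0.046 (-0.26 to 0.16). SAMD9L, next to SAMD9 on chromosome 7, stood lowest with -0.20 (-0.41 to -0.00020, limma adjusted p 0.140), from -0.20 and -0.028 with shRNA#2 and -0.066 and 0.031 with shRNA#4, against 0.25 and 0.028 with scramble.

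IFI44 and IFI44L, neighbours on chromosome 1 whose transcripts are common readouts of interferon exposure, were at -0.022 (95% interval -0.14 to 0.094) and -0.020 (-0.12 to 0.078). All 6 arrays of IFI44L lay between -0.0053 and 0.041. OASL, the only OAS family gene measured, which enhances RIG-I signalling, had -0.058 (-0.32 to 0.20). Since levels were removed by the centring, these values do not show whether the effectors and readout genes were transcribed in any of the groups.

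IFI35 and DTX3L were the other genes that fell. IFI35, an interferon-induced leucine zipper protein, stood at 0.032 and -0.045 with shRNA#2 and at -0.13 and -0.032 with shRNA#4, against 0.24 and 0.21 with scramble. The scramble arrays were above every hairpin array. IFI35 fell by 0.27 ± 0.051 (limma adjusted p 0.0106), by 0.24 ± 0.058 with shRNA#2 (0.0354) and by 0.31 ± 0.058 with shRNA#4 (0.0112). Without replicate 1 of scramble the calls for the mean (0.0692), shRNA#2 (0.139) and shRNA#4 (0.0565) all ended. The shRNA#2 call also ended after quantile normalization (0.0601) and without either shRNA#2 array (0.0823 and 0.168 without replicates 1 and 2) or replicate 2 of scramble (0.0941), and the shRNA#4 call without replicate 1 of shRNA#4 (0.0575).

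DTX3L encodes a ubiquitin ligase that works as a complex with PARP9. It stood at -0.10 and -0.11 with shRNA#2 and at -0.0084 and 0.0084 with shRNA#4, against 0.12 and 0.26 with scramble, in 3 groups that did not overlap. It fell by 0.24 ± 0.052 in the mean (limma adjusted p 0.0196) and by 0.29 ± 0.061 with shRNA#2 (0.0195), and the change with shRNA#4 was -0.19 ± 0.061 (0.0730). The call for the mean ended without replicate 2 of scramble (-0.17, 0.0979), without either shRNA#2 array (0.0557 and 0.0576) and without replicate 1 of shRNA#4 (0.0537), and that for shRNA#2 without either shRNA#2 array (0.0878 and 0.0913) or replicate 2 of scramble (0.0675).

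**Figure D5:**
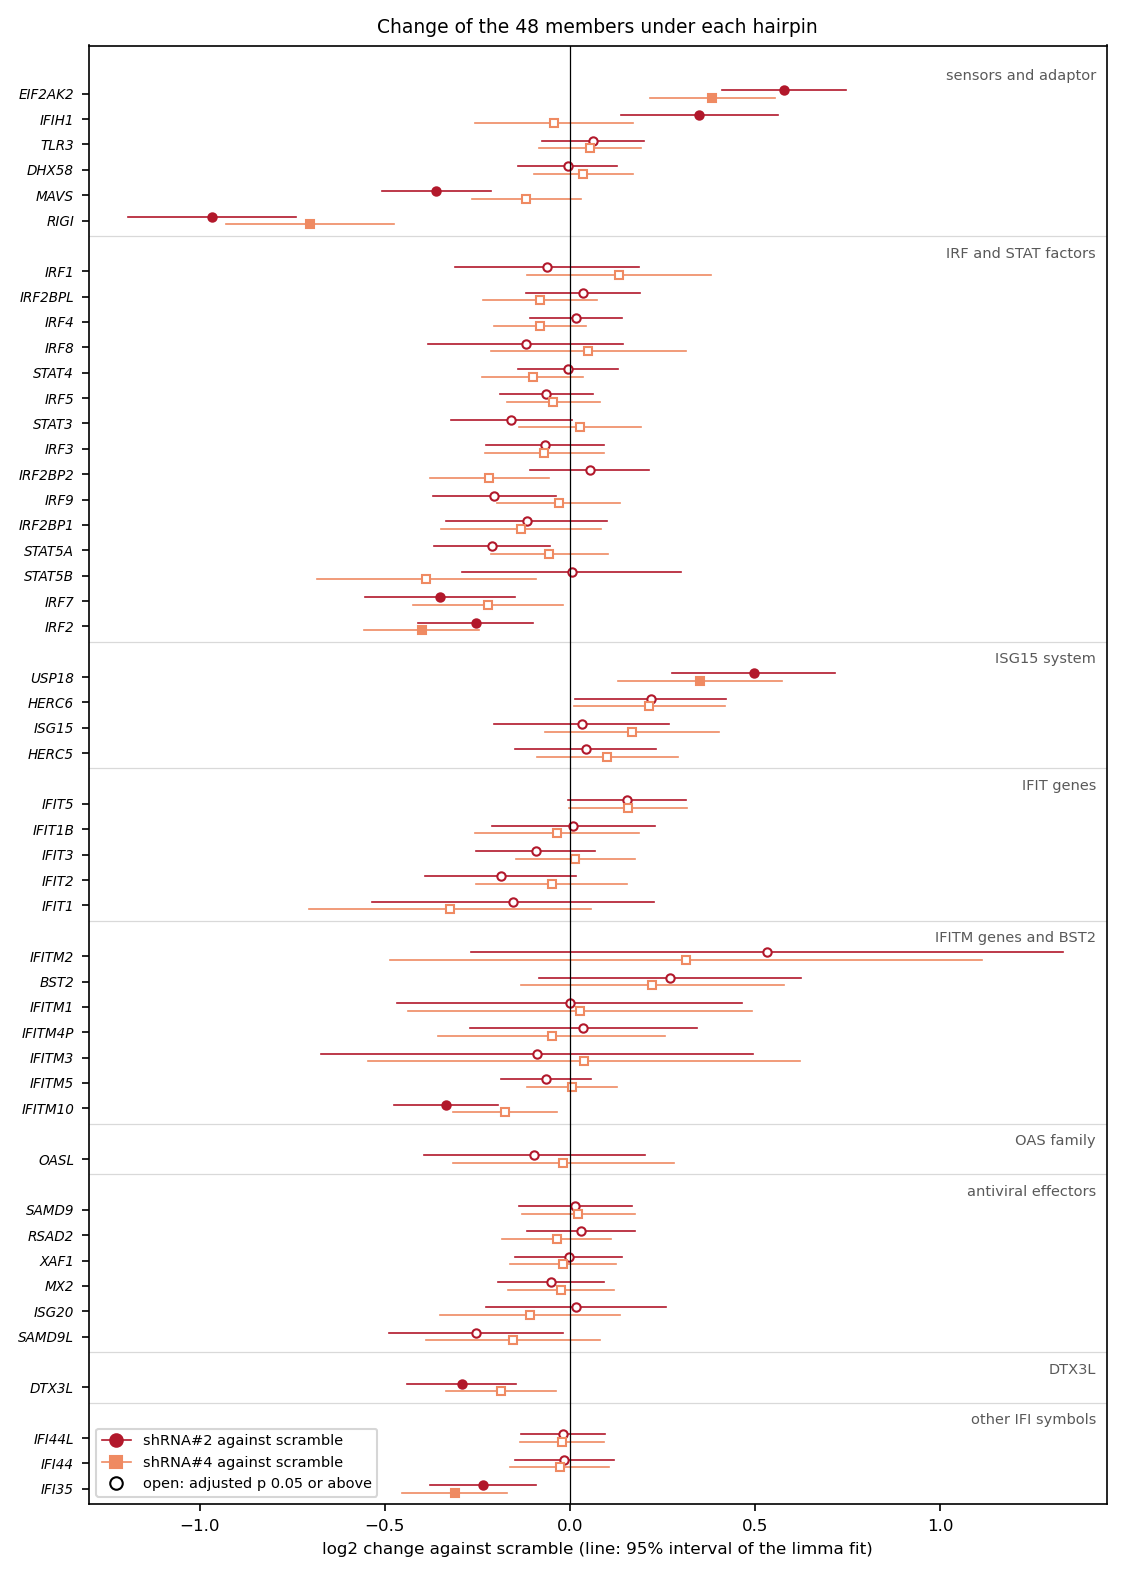
Log2 change against scramble (horizontal axis) for the 48 members, grouped by role, with shRNA#2 as circles and shRNA#4 as squares. Filled symbols were called and lines are 95% intervals of the limma fit. RIGI has the lowest values at -0.97 and -0.70, the antiviral effectors other than SAMD9L lie close to 0, and IFITM2, IFITM3 and IFITM1 have the widest intervals.

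Other genes of the pathway were taken from 6 further lists with 105 symbols, of which 57 were measured. For the mean of both hairpins 7 rose and 9 fell, 28.1% of them, near the 25.4% of all genes, with a median of 0.0048. Of 13 measured genes that signal from RNA and DNA sensors 3 rose and 2 fell (38.5%, where 14.8% of all genes rose and 10.6% fell). CGAS, the sensor of cytosolic DNA, stood at 0.17 and 0.16 with shRNA#2 and at 0.0036 and -0.0036 with shRNA#4, against -0.80 and -0.77 with scramble. The replicates were close and the hairpin arrays lay far above the scramble arrays. CGAS rose by 0.87 ± 0.040, a 1.83-fold higher level (limma adjusted p 0.000187), which is about as far as RIGI fell.

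TRIM25, the ubiquitin ligase known for activating RIG-I, stood at -0.033 and -0.040 with shRNA#2 and at 0.010 and -0.010 with shRNA#4, against 0.31 and 0.32 with scramble. It fell by 0.34 ± 0.039 (limma adjusted p 0.00209). TRAF3, which links MAVS to the kinases, differed between the hairpins by 0.52 (limma adjusted p 0.00630), with a rise of 0.43 under shRNA#2 (0.00708) and a change of -0.093 under shRNA#4 (0.410). AZI2, an adaptor of the kinase TBK1, rose by 0.30 ± 0.049 in the mean (limma adjusted p 0.00668). NFKB1, a subunit of NF-kappa-B, rose by 0.21 ± 0.045 in the mean (limma adjusted p 0.0182), with 0.095 under shRNA#2 and 0.32 under shRNA#4, a difference of -0.23 (0.0350). TRADD, an adaptor of the TNF receptor, fell by 0.35 ± 0.080 in the mean (limma adjusted p 0.0232). The mean calls of NFKB1 and TRADD ended in omissions of 1 array (adjusted p up to 0.117 and 0.0872). The calls of CGAS, AZI2 and TRIM25 for the mean and of TRAF3 between the hairpins held in every alternative run.

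Of 4 measured genes of antigen presentation 3 fell and 0 rose for the mean of both hairpins, where 10.6% of all genes fell. ERAP1, which trims peptides for class I molecules, fell by 0.51 ± 0.065 (limma adjusted p 0.00284) and was lower with shRNA#4 than with shRNA#2, where shRNA#2 minus shRNA#4 was 0.53 (0.00837). TAPBP, the tapasin chaperone, fell by 0.37 ± 0.045 (limma adjusted p 0.00248), with a difference of -0.29 between the hairpins (0.0165). B2M, the light chain of class I molecules, fell by 0.24 ± 0.056 (limma adjusted p 0.0235), a call that ended without any 1 of the shRNA#2 or scramble arrays (0.0609 to 0.113). Neither of the 2 measured interferon receptor genes, IFNGR1 and IFNGR2, was called. Of 6 measured kinases and feedback genes, SOCS1, an inhibitor of JAK kinases, rose by 0.31 ± 0.072 (limma adjusted p 0.0246), a call that ended without any 1 of the shRNA#2 or scramble arrays (0.0626 to 0.143).

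The chemokines that interferon induces, CXCL9, CXCL10, CXCL11 and CCL5, were not called in any of the 4 comparisons. Among 28 measured further interferon-stimulated genes 3 rose and 4 fell for the mean of both hairpins, with a median of 0.014. These are 25.0%, against 25.4% of all genes, of which 14.8% were higher and 10.6% lower. FBXO6, a ubiquitin ligase subunit that recognises glycoproteins, stood at -0.17 and -0.015 with shRNA#2 and at -0.39 and 0.015 with shRNA#4, against 0.68 and 0.70 with scramble. It fell by 0.83 ± 0.11 (limma adjusted p 0.00364). PNPT1, a mitochondrial RNA-degrading enzyme, rose by 0.47 ± 0.059 (limma adjusted p 0.00271). LAMP3, a lysosomal membrane protein, rose by 0.80 with shRNA#4 (limma adjusted p 0.000893) and had 0.14 with shRNA#2 (0.229), and the hairpins differed by -0.66 (0.00419). The other called genes of this list were TRIM21, an intracellular antibody receptor, at -0.29 in the mean, GBP3, a guanylate-binding protein, at -0.20, SHFL, an inhibitor of ribosomal frameshifting, at -0.16 and PLSCR1, a phospholipid scramblase, at 0.27, with limma adjusted p-values from 0.0219 to 0.0467. Each of these 4 calls ended in at least 4 omissions of 1 array. TRIM21 had -0.52 with shRNA#2 (limma adjusted p 0.0106) and -0.059 with shRNA#4 (0.748). GBP3 had -0.31 with shRNA#2 (limma adjusted p 0.0169) and -0.090 with shRNA#4 (0.389). Between the hairpins TRIM21 differed by -0.47 (limma adjusted p 0.0221) and UBE2L6, the enzyme that conjugates ISG15, by -0.32 (0.0462), and both calls ended in omissions of 1 array.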

How the data were processed

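Total RNA of 6 Caco-2 samples was labelled with biotin and read on 1 Affymetrix array each, per the labels' protocols. The deposited values are 1-channel log2 data that the authors had centred, since each probe set has a 6-array median of 0. Base 2 was assumed. The sources used here do not say how probes were summarised, corrected for background or normalized. Of 48144 probe sets, 16098 had 1 symbol in the platform table, and updating through RefSeq gave 14884 genes. Probe sets of 1 gene were averaged, which touched 2 of the 48 genes.

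limma 3.58.1 (R 4.3.3) fitted all 14884 genes over 6 arrays and 3 groups using eBayes without a trend and Benjamini-Hochberg adjustment, on 3 residual degrees of freedom and a prior of 3.09. The labels call the replicates biological without saying whether they are separate infections, so p-values measure the spread between these samples, and the number of arrays limits the precision. Members called in any comparison and the main sensors and factors are given array by array, and pathway list genes are named where called. HERC6, IFIT1, IFIT5, IFITM2, IFITM3, BST2, SAMD9L and STAT5B were added after their values were seen, as were the uncalled receptors and chemokines. Members, lists and tests were chosen with earlier results of these data known. The fit was run on simulated data with independent noise, which checks the code and does not show how reliable the calls made here are. Alternatives were quantile normalization, centring of arrays, other choices of probe set, a replicate block, a robust prior, array weights, fewer arrays, a stricter threshold and leaving out each array. Motifs were counted with Python 3.11.15 and pandas 2.3.3, and figures drawn with matplotlib 3.10.9.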

Additional observations from a re-analysis of the deposited data

Results flagged for a closer look

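A direct test of shRNA#2 against shRNA#4 gave 3 of the 48 genes a limma adjusted p under 0.05. IFIH1 was higher with shRNA#2 by 0.39, IRF2BP2 was higher with shRNA#2 by 0.27, and MAVS was lower with shRNA#2 (-0.24). Their limma adjusted p-values lay between 0.0320 and 0.0457. With the replicate number as a block IRF2BP2 (0.0516) and MAVS (0.0561) were no longer called, and IFIH1 was (0.0172). They are 6.25% of the 48 genes, and 15.3% of all genes were called in that comparison.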

How the results depend on the processing

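The counts of called genes among the 48 were recomputed under each alternative, and no call changed its direction. With a limma adjusted p under 0.01 there were 3 calls for the mean of both hairpins, 3 for shRNA#2, 3 for shRNA#4 and 0 between the hairpins. In that last comparison 9 of the 48 genes and 4149 of all 14884 had an unadjusted limma p under 0.05. Leaving out each array in turn gave 5 to 11 calls for the mean, 3 to 11 for shRNA#2, 4 to 6 for shRNA#4 and 0 to 2 between the hairpins. Between the hairpins 1 gene was called with only the arrays compared and 1 with the replicate block, which was IFIH1, against 3 without it. The block left 9, 10 and 7 calls for the mean, shRNA#2 and shRNA#4, and with it 24.2% of all genes were called for shRNA#2. Arrays of the same number deviated together only weakly, with correlations from 0.116 to 0.18 over 48144 probe sets, and nothing in the labels pairs them. RIGI in each comparison with scramble, EIF2AK2 with shRNA#2 and the mean, and IRF2 with shRNA#4 and the mean, were called in every alternative. The mean of both hairpins uses every array, so fewer arrays could not be tried for it. Signal over background could not be used to judge which genes were bright enough to measure.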
